A study of Mus musculus with 36 samples.

Results

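Microglia at rest carry a set of transcripts that sets them apart from neurons and other glia, and 8 of these identity genes, Tmem119, Siglech, Selplg, Cx3cr1, Fcrls, Sall1, Gpr34 and Aif1, are described here. They were chosen by name, and each of the 8 was found as 1 row in both deposited expression tables, of 22560 genes with values in the table of the receptor lines and 22380 in the table of the D1 line. The study sequenced RNA of mouse striatum after translating ribosome affinity purification (TRAP), in which ribosomes of 1 cell type are captured through an eGFP fused to their protein L10a, and also the unbound RNA left behind. The authors deposited RPKM, read counts scaled by gene length and library size, so levels of different genes are compared per length.

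There were 12 groups and 35 libraries. In 20 libraries the tag was switched on in microglia: all of these mice carried Cx3cr1CreErt2 on 1 allele with the Cre-dependent Eef1a1LSL.eGFPL10a, and were given tamoxifen at 4 to 6 weeks of age. They also carried Camk2a-tTA, a driver active in forebrain neurons, with either TetO-Chrm3, an excitatory designer receptor, or TetO-Chrm4, a silencing one. The mice were injected with clozapine-N-oxide (CNO), the ligand of these receptors, or with saline, 2 h before the experiment. The Chrm3 line gave 3 libraries and the Chrm4 line 2 libraries for each injection and each fraction. There was no group with CNO and no receptor. In the other 15 libraries the tag was expressed in D1 neurons, the striatal projection neurons with the dopamine receptor D1, from Drd1-eGFPL10a. These comprised 4 control and 3 IL34-KO pull-down libraries and 4 control and 4 IL34-KO unbound libraries. The genotype text reads Il34-/- for the controls as well, and Drd1-Cre was named for the IL34-KO mice alone. Since the Cre of the receptor lines sits in Cx3cr1, every group of these lines shares an altered Cx3cr1 allele, and the pull-down selects cells by activity of a gene that is itself 1 of the 8. The labels do not say whether libraries came from separate animals, so p-values measure the spread between these libraries.

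Homeostatic microglia survey the brain with motile processes and depend on signals from the tissue, among them TGF-beta and the ligands of the receptor Csf1r. Sall1, a zinc-finger transcription factor, helps to hold this state. The surface proteins among the 8 face neurons, lipids or other cells: Cx3cr1 binds the neuronal chemokine fractalkine (Cx3cl1), Gpr34 responds to lysophosphatidylserine, Siglech is a sialic-acid-binding-type lectin that signals through Tyrobp, Selplg (PSGL-1) binds selectins, and Fcrls is a scavenger-receptor-like member of the Fc receptor-like family. Tmem119 is a membrane protein used as a microglial marker, and Aif1 encodes the cytoplasmic actin-binding protein IBA1. Many of these transcripts are known to decline when microglia are activated, and the whole set declines in bulk tissue when microglia are lost. In bulk RNA such as the unbound fraction, fewer microglia and less RNA per microglia cannot be told apart.

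The genes lie on 7 chromosomes in the GENCODE M21 annotation of GRCm38, which differs from the build mm9 named in the submitters' notes. Tmem119 (chr5:113793729-113800516) and Selplg (chr5:113818536-113832644) are neighbours on the minus strand, 18019 bases apart, with 1 gene and no protein-coding gene between them. Siglech lies at chr7:55768178-55778925, Cx3cr1 at chr9:119901616-120069879, Fcrls at chr3:87250758-87263738, Sall1 at chr8:89027235-89044162, Gpr34 at chrX:13632089-13640858 and Aif1 at chr17:35170991-35176068. Exons of Cx3cr1 overlap those of Gm33858 on the opposite strand, and Gpr34 lies opposite Cask, without shared exons. Whether counting used strand is not given in the sources used here, so reads of Cx3cr1 and Gm33858 cannot be told apart. RefSeq promoters on GRCm38.p6 were matched for 5 of the 8 (Siglech, Cx3cr1, Fcrls, Sall1 and Aif1). The 250 bases before the start are shown, 5′ to 3′ on the gene's strand, for the member that differed between the lines (Fcrls, chr3:87263525-87263774, minus), the member with the lowest p in the libraries labelled IL34-KO (Siglech, chr7:55767934-55768183, plus) and the member most abundant in the pull-down (Aif1, chr17:35176053-35176302, minus). Capitals mark TATAAA.
Fcrls: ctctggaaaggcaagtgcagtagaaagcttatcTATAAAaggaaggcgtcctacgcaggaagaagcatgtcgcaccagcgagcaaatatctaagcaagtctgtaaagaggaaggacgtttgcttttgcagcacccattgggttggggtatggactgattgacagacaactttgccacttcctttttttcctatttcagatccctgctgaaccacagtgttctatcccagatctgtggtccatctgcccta
Siglech: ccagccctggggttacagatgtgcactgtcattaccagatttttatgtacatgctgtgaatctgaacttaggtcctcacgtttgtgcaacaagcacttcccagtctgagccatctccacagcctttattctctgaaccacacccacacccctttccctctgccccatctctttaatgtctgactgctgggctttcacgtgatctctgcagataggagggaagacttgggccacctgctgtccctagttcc
Aif1: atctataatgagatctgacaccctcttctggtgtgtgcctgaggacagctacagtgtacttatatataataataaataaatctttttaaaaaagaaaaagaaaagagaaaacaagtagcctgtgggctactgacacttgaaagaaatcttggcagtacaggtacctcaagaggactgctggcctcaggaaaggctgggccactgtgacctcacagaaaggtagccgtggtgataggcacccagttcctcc

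Motifs were searched on both strands. The ETS motif GAGGAAGT, the form bound by PU.1, was in 2.44% of the 32851 promoters of this table, the ETS-IRF composite GGAANNGAA in 6.99%, GTCTAGAC, a SMAD motif, in 0.167% and the TATA motif TATAAA in 12.4%. In the 7 windows of the 5 matched members, of which Sall1 has 3, the single match was TATAAA in Fcrls, whose bases lie 217 to 212 before the start. None of these windows held the other letters, which says nothing of the factors that bind them.

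Reads in genes, recovered from the steps between RPKM values, ran from 14.1 to 107 M per library in the microglial pull-downs, 12.1 to 109 M in the unbound RNA of these lines, 24.5 to 41.1 M in the D1 pull-downs and 11.3 to 29.1 M in the unbound RNA of the D1 line. Behind each member lay 2007 reads or more in every microglial pull-down library, but only 6 to 2528 in unbound RNA of the receptor lines, 31 to 745 in that of the D1 line and 8 to 199 in the D1 pull-downs. Fos, an immediate early gene that follows neuronal activity, served as a check on CNO: in unbound RNA of the Chrm3 line it was 1.69, 5.01 and 0.967 RPKM after saline against 20.8, 192 and 101 after CNO (limma, log2 change 4.57 ± 0.65 SE, adjusted p = 0.0118), and in the Chrm4 line 2.18 and 3.04 against 2.80 and 0.610 (−0.53 ± 0.79, adjusted p = 0.983). None of 37 pairs of libraries within a group agreed within sampling noise.

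All 8 genes were abundant in the microglial pull-down and low in the RNA left behind. In saline mice, Aif1 was 602, 511 and 347 RPKM in the 3 Chrm3 pull-down libraries and 402 and 514 in the 2 of Chrm4, and 1.89 to 3.35 RPKM in the 5 unbound libraries. Tmem119 was 350, 405 and 285 in Chrm3 and 311 and 385 in Chrm4, against 2.11 to 3.57 unbound. Every pull-down library of either gene lay far above every unbound one. The chemokine receptor Cx3cr1 was 252, 225 and 168 in Chrm3 and 220 and 258 in Chrm4, against 0.976 to 1.48 unbound. Gpr34, the lysophospholipid receptor, was 277, 225 and 125 in Chrm3 and 237 and 188 in Chrm4, against 1.47 to 2.24. Neither overlapped between fractions. The lectin Siglech was 149, 160 and 92.8 in Chrm3 and 124 and 162 in Chrm4, against 0.871 to 2.57 unbound. The selectin ligand Selplg was 180, 221 and 148 in Chrm3 and 176 and 227 in Chrm4, against 1.64 to 2.32. The least abundant were Sall1, at 125, 144, 97.9, 86.6 and 109 in these 5 libraries, and Fcrls, at 65.9, 77.2, 72.9, 136 and 152.

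**Figure D1:**
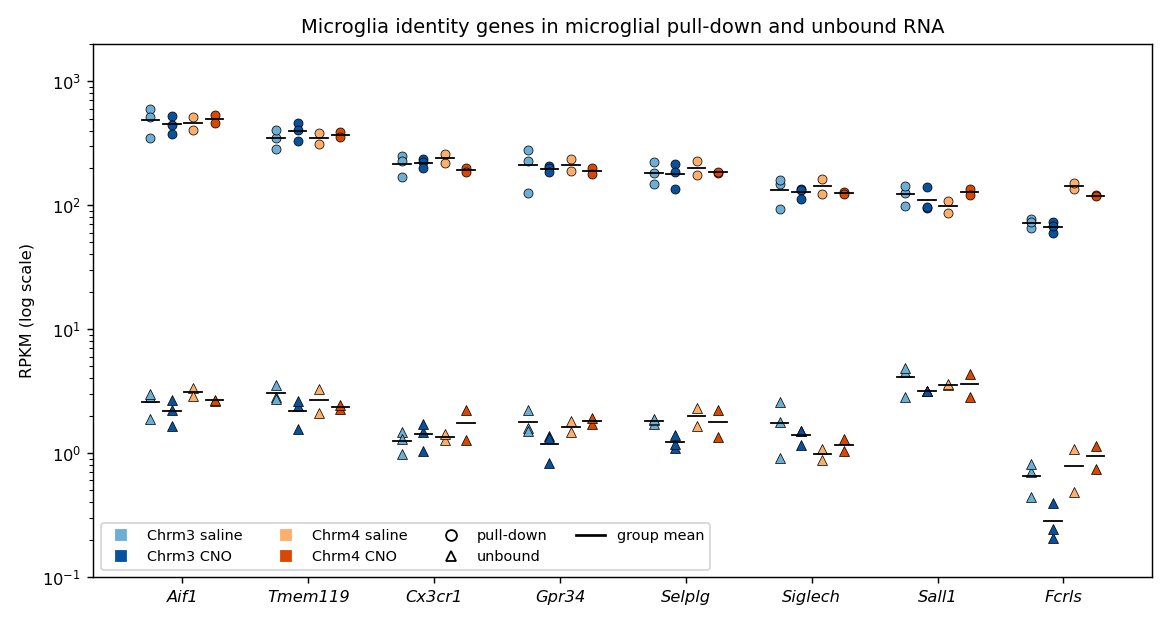
RPKM of each identity gene (log axis) in the 10 microglial pull-down libraries (circles) and the 10 unbound libraries (triangles) of the receptor lines, coloured by line and injection, with black bars for group means of 2 or 3 libraries. All pull-down values of the 8 genes lie between 59.9 and 602 RPKM and all unbound values between 0.204 and 4.89.

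Each of the 8 passed the threshold for enrichment in the pull-down (limma on log2(RPKM + 1), 20 libraries fitted together, Benjamini-Hochberg adjusted p under 0.05 over all genes tested). With saline, 31.9% of 11721 genes were called higher in the pull-down, and with CNO 33.3%. With saline the log2 difference was largest for Aif1, 6.93 ± 0.15 (SE), a 122-fold difference on this scale, then Cx3cr1 (6.62 ± 0.14), Tmem119 (6.50 ± 0.14), Gpr34 (6.25 ± 0.17), Selplg (6.05 ± 0.15), Fcrls (5.92 ± 0.13), Siglech (5.90 ± 0.17) and Sall1 (4.52 ± 0.15, 22.9-fold). Their adjusted p ran from 5.43e-18 to 3.09e-15, and they ranked between 3 and 98 by p. With CNO the values ran from 4.78 ± 0.15 for Sall1 to 7.12 ± 0.15 for Aif1. The other 35 homeostatic microglia genes listed, such as P2ry12 and Csf1r, were all called higher as well, with a median of 5.65 with saline, against 6.15 for the 8 and −0.03 over all genes. Within that list, the adhesion receptor Gpr56 had the smallest difference in both conditions (2.94 ± 0.19 with saline), and the largest was Ctss, a lysosomal protease, with saline (7.53 ± 0.17) and the complement subunit C1qb with CNO (7.62 ± 0.16). Of the microglial transcription factors 11 of 12 were called higher, with a median of 3.99. Fcrls, at a mean of 0.625 RPKM in the 10 unbound libraries, and some listed genes reached the filter only through the pull-down. For such genes the filter favoured this direction, and their share of these counts supports nothing. Without the filter limma still called all 8, with a largest adjusted p of 2.05e-11 (Sall1 with saline). The pseudocount compresses the ratio of the low genes. As plain ratios of mean RPKM with saline, Cx3cr1 stood 174-fold, Aif1 171-fold, Fcrls 143-fold, Gpr34 122-fold, Tmem119 120-fold, Selplg 101-fold, Siglech 95.6-fold and Sall1 29.1-fold above the unbound RNA.

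The transcription factor Sall1 was thus the least enriched of the 8 on both scales, and its 95% interval with saline, 4.20 to 4.84, lay below those of the other 7, the lowest of which began at 5.55 (Siglech). Ranked by mean RPKM over 10 libraries, Sall1 was the seventh of 8 in the pull-down (115 ± 20.7, SD) but the highest in the unbound RNA (3.60 ± 0.729), above Tmem119 in 9 of 10 libraries. It was also the highest in all 8 unbound libraries of the D1 line. No test between genes was made. Markers of other myeloid cells were lower than the 8 in the pull-down. The 10 perivascular and border macrophage genes together gave 26.2 to 70.5 RPKM in the 10 pull-down libraries against 1336 to 2002 for the 8. They gave 1.72 to 3.23 RPKM in the 10 unbound libraries, so these genes too stood higher in the pull-down. The 10 monocyte and neutrophil genes gave 0.0987 to 2.79 in the pull-down libraries, and S100a8, Camp and Retnlg were at 0 in all 10 of these.

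The order of the levels in the pull-down was Aif1 (472 ± 79.7 RPKM over 10 libraries), Tmem119 (367 ± 51.1), Cx3cr1 (217 ± 28.6), Gpr34 (202 ± 40.2), Selplg (185 ± 29.8), Siglech (132 ± 21.1), Sall1 (115 ± 20.7) and Fcrls (94.5 ± 33.7). Tmem119 exceeded Cx3cr1, and Selplg exceeded Siglech, in 10 of 10 libraries. Aif1 exceeded Tmem119 in 9, Cx3cr1 exceeded Gpr34 in 8 and Sall1 exceeded Fcrls in 8, while Gpr34 and Selplg were interchangeable, each higher in 5. In the unbound RNA of these lines Tmem119 (2.58) and Aif1 (2.58) did not separate, with Tmem119 higher in 4 of 10. Across the 10 pull-down libraries the coefficient of variation was 13.2% to 19.9% for 7 of the genes and 35.6% for Fcrls. Within groups, the median SD of the 8 on the log2 scale was 0.27, against 0.22 for the 404 genes with mean levels between those of Fcrls and Aif1. Part of this spread was shared: in the third saline library of the Chrm3 line 5 of the 8 were at their lowest, and they summed to 1336 RPKM there against 2002 and 1968 in the other 2. The 35 other homeostatic genes were low there too (8862 against 12578 and 12715 RPKM), so that the 8 amounted to 15.1% of that sum in this library and to 15.1% to 17.4% over all 10. Markers of other cells were at their highest of the 3 there: the 10 pan-neuronal markers summed to 1759 RPKM against 956 and 1377, the 10 oligodendrocyte markers to 445 against 236 and 208, and the 10 astrocyte markers to 167 against 124 and 114. Their part in the members' spread was not tested.

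After CNO, none of the 8 was called in microglia of the Chrm3 line, where neurons carry the excitatory receptor. Tmem119 was 350, 405 and 285 RPKM after saline and 459, 332 and 402 after CNO, the largest estimate among the 8, at 0.20 (95% interval −0.20 to 0.60, adjusted p = 0.970). Sall1 was 125, 144 and 97.9 after saline and 141, 95.2 and 97.1 after CNO, a log2 change of −0.14 (−0.57 to 0.28). Both pairs of groups overlapped, as did those of the other 6 genes. Gpr34 was 277, 225 and 125 after saline and 208, 200 and 184 after CNO, with a change of −0.01 (−0.52 to 0.50). Cx3cr1 was 252, 225 and 168 after saline and 237, 223 and 201 after CNO (0.05, −0.32 to 0.43). For these receptors the saline group held both the highest and the lowest of the 6 libraries.

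Aif1 was 602, 511 and 347 against 526, 448 and 377 (−0.09, −0.54 to 0.37), Siglech 149, 160 and 92.8 against 135, 133 and 113 (−0.04, −0.48 to 0.40). Selplg was 180, 221 and 148 against 214, 135 and 185 (−0.05, −0.48 to 0.39), and Fcrls 65.9, 77.2 and 72.9 against 59.9, 73.7 and 68.2 (−0.10, −0.44 to 0.24). Over the 8 genes, the 95% intervals reached from 0.673-fold to 1.51-fold on the scale of RPKM + 1, so smaller changes than these were not resolved. The lowest unadjusted p was 0.297, 0.0436% of 11465 genes were called, and limma-voom on the recovered reads also called 0 of the 8. The median change was −0.04 for the 8, −0.02 for the 35 other homeostatic genes, of which none was called (Abi3, an adaptor protein, 0.53 ± 0.20; the sugar transporter Slc2a5, −0.40 ± 0.20), and −0.03 over all genes.

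In the Chrm4 line, with 2 libraries per group, 0 of the 8 were called, 0% of 11465 genes passed, 433 had an unadjusted p under 0.05 and limma-voom called 0 as well. Sall1 was 86.6 and 109 RPKM after saline and 134 and 121 after CNO, the largest estimate, 0.39 (95% interval −0.13 to 0.91, unadjusted p = 0.133). Cx3cr1 was 220 and 258 after saline and 200 and 185 after CNO, the lowest estimate, −0.31 (−0.77 to 0.16). Fcrls was 136 and 152 after saline and 120 and 118 after CNO (−0.27, −0.68 to 0.14). In these 3 genes the 2 groups did not overlap, which 35.4% of all genes tested also showed. Tmem119 was 311 and 385 against 388 and 353, Aif1 402 and 514 against 534 and 459, Selplg 176 and 227 against 183 and 185, Siglech 124 and 162 against 129 and 124, and Gpr34 237 and 188 against 200 and 177. Those 5 overlapped between the injections, with estimates from −0.16 to 0.12. Over the 8, the intervals reached from 0.580-fold to 1.88-fold. The difference between the changes of the 2 lines was called for 0 of the 8 and for 0% of genes, with 452 genes at an unadjusted p under 0.05. It was widest for Sall1, −0.53 (−1.21 to 0.14, adjusted p = 1.00), and for Cx3cr1, 0.36 (−0.24 to 0.96).

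**Figure D2:**
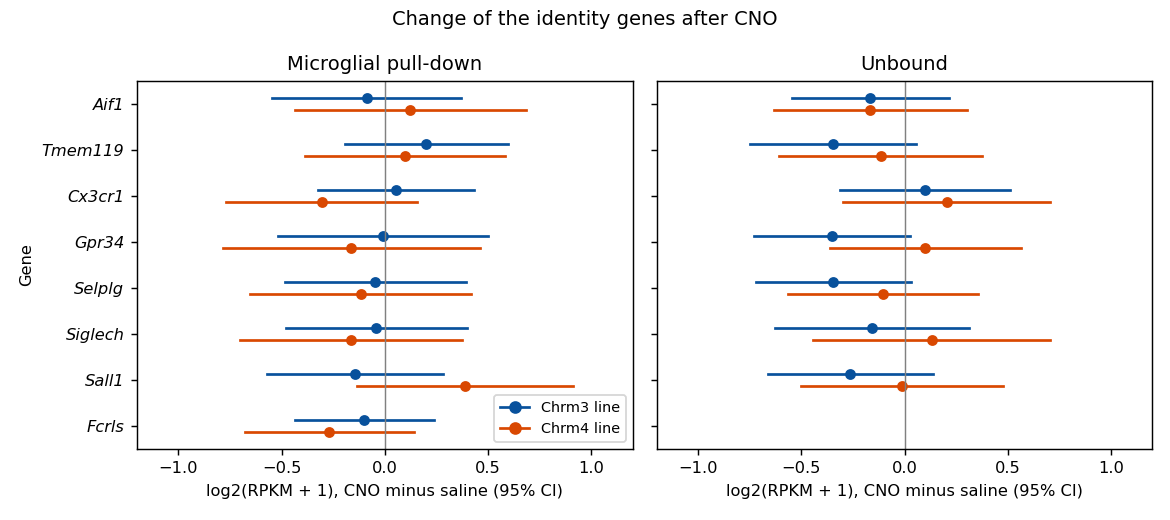
Change of each identity gene after CNO, as the difference in log2(RPKM + 1) with its 95% interval, in the microglial pull-down (left) and in unbound RNA (right), for the Chrm3 line (blue) and the Chrm4 line (orange). Every interval includes 0, and Fcrls is absent on the right because its mean there was below 1 RPKM.

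In the unbound RNA, 7 of the 8 reached the mean of 1 RPKM required for testing, and 0 of these were called after CNO in either line, where 0.701% of 11123 genes were called in the Chrm3 line and 0% in the Chrm4 line. Of the 7, none had an unadjusted p under 0.05, and limma-voom called 0. In the Chrm3 line 6 of the 7 estimates lay below 0, with a median of −0.26 against −0.07 over all genes. Gpr34 was 2.24, 1.58 and 1.51 RPKM after saline and 0.836, 1.38 and 1.32 after CNO (−0.35 ± 0.17, adjusted p = 0.432). Selplg was 1.72, 1.85 and 1.89 against 1.10, 1.17 and 1.40 (−0.34 ± 0.17), and Tmem119 was 2.85, 2.71 and 3.57 against 2.40, 2.65 and 1.55 (−0.35 ± 0.18). In these 3 of the 7 all CNO libraries lay below all saline libraries, as for 13% of all genes tested. Cx3cr1 went the other way in its estimate, 1.48, 0.976 and 1.29 against 1.47, 1.73 and 1.04 (0.10 ± 0.19). Fcrls, too low to be tested, was 0.443, 0.707 and 0.812 after saline and 0.204, 0.244 and 0.393 after CNO, from 6 to 135 reads. Its CNO libraries also all lay below its saline libraries. Without the filter on low values its change was −0.37 ± 0.15 (limma, unadjusted p = 0.0447, adjusted p = 0.513).

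Of the 35 other homeostatic genes 25 were tested there, 22 of them with estimates below 0, and none was called. The smallest was P2ry13, a purinergic receptor, at −0.58 ± 0.18. In these Chrm3 libraries the 8 summed to 15.2 to 19.5 RPKM after saline and 11.98 to 14.04 after CNO. The 35 other homeostatic genes summed to 118 to 121 and 88.9 to 99.2. Neither sum overlapped between the injections, while both did in unbound RNA of the Chrm4 line. No test of the sums was made. In the same Chrm3 libraries the summed oligodendrocyte markers were 779 to 1016 RPKM after saline and 664 to 729 after CNO. The summed pan-neuronal markers were 2676 to 3947 and 3735 to 4908. The oligodendrocyte sums did not overlap between the injections and the pan-neuronal sums did. The part of these markers in the members' values was not tested. In the Chrm4 line the 7 estimates ran from −0.17 for Aif1 (3.35 and 2.88 RPKM against 2.64 and 2.68) to 0.20 for Cx3cr1 (1.27 and 1.44 against 2.22 and 1.28). Depth went with the injection there, at 20.5 and 23.6 M reads after saline and 106 and 109 M after CNO, and the effects of the 2 cannot be told apart. The difference of changes between the lines was called for 0 of 7, where 0.0539% of genes were, and lay between −0.45 (Gpr34) and 0.00 (Aif1).

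Fcrls was the 1 member called between the lines. In the pull-down it was 65.9, 77.2, 72.9, 59.9, 73.7 and 68.2 RPKM in the 6 Chrm3 libraries and 136, 152, 120 and 118 in the 4 Chrm4 libraries. The lines did not overlap, whichever the injection, and the means were 69.6 and 132 RPKM, a ratio of 1.89. This comparison was added after the values had been seen, so its p is no independent evidence. The log2 difference was 0.91 ± 0.12 (limma, adjusted p = 0.0370), and Fcrls was the single gene called of 11465, 0.00872% of those tested. The call was lost when any of 9 of the 10 libraries was left out, with an adjusted p of up to 0.496, while the difference itself ran from 0.87 to 0.95. It was kept without the first Chrm3 CNO library. Without the filter on low values the adjusted p was 0.115. The other 7 members lay between −0.05 ± 0.16 (Sall1) and 0.11 ± 0.16 (Selplg), with intervals from 0.763-fold to 1.37-fold. Of the 35 other homeostatic genes none was called, and the largest difference above 0 was 0.40 ± 0.13 (Olfml3, a secreted glycoprotein). The receptor, the line that carries it and its litters cannot be told apart here.

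**Figure D3:**
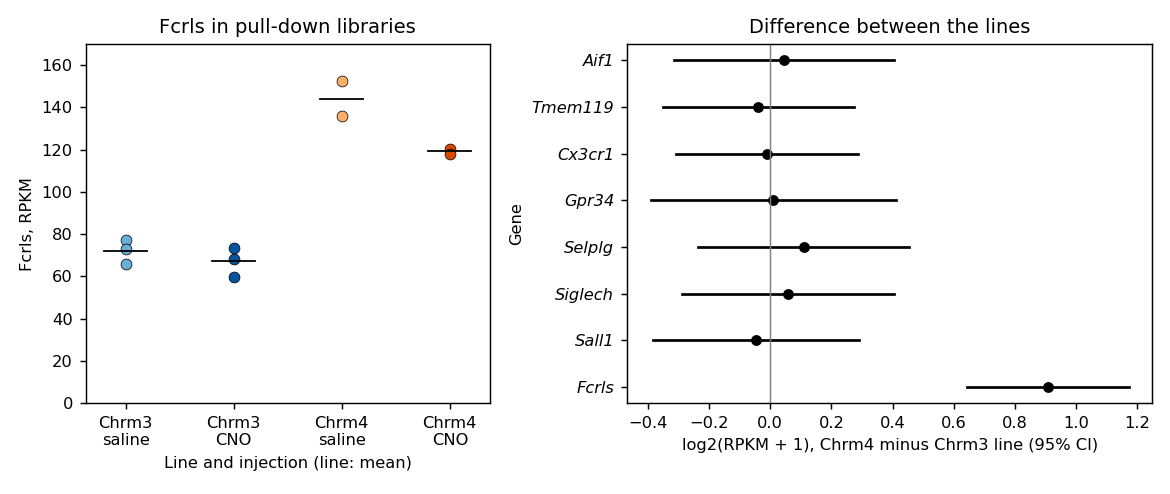
Left, RPKM of Fcrls in each of the 10 microglial pull-down libraries by line and injection, with black bars for means. Right, difference between the Chrm4 and Chrm3 lines in log2(RPKM + 1) with 95% intervals for the 8 genes. Fcrls lies at 0.91 while the other 7 lie between −0.05 and 0.11.

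In the unbound RNA Fcrls was 0.204 to 0.812 RPKM in the 6 Chrm3 libraries and 1.07, 0.487, 0.741 and 1.15 in the 4 Chrm4 libraries, means of 0.467 and 0.862 RPKM and a ratio of 1.85. These groups overlapped, and the difference without the filter was 0.35 ± 0.12 (unadjusted p = 0.0220, adjusted p = 0.599). Of the 7 members tested in the unbound RNA 0 were called between the lines, against 0.018% of genes, and their estimates ran from −0.29 (Siglech) to 0.22 (Aif1). In the separate table of the D1 line, unbound Fcrls was 1.44 to 1.79 RPKM in controls. Rescaled to reads in genes, for an offset of scaling given below, their mean was 2.90 instead of 1.62 RPKM. Levels of the 2 tables are therefore not directly comparable, and they were not compared by test.

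In the D1 line the targeted gene was read first as a check on the labels. Il34 encodes a cytokine made by neurons that binds Csf1r on microglia and sustains them. In the D1 pull-down it was 6.56, 9.87, 9.19 and 10.5 RPKM in controls and 11.1, 9.84 and 9.90 in libraries labelled IL34-KO (log2 difference 0.18 ± 0.14, adjusted p = 1.00). In unbound RNA it was 2.57, 2.66, 2.80 and 3.37 in controls and 3.14, 2.29, 2.02 and 2.61 in libraries labelled IL34-KO (−0.14 ± 0.11, adjusted p = 1.00). The groups overlapped in both fractions, so the Il34 level did not separate the labels. A value per gene does not show the loss of an exon, and the genotype was not checked in another way, so the libraries are named by their labels below.

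All 8 identity genes stood lower in the unbound RNA labelled IL34-KO than in that of controls, at 0.513 to 0.726 of the control mean, and none passed the threshold over all genes. Siglech was 1.73, 1.86, 1.79 and 2.18 RPKM in controls and 1.28, 0.794, 0.751 and 1.10 in libraries labelled IL34-KO (log2 difference −0.55 ± 0.10, unadjusted p = 0.000126, adjusted p = 0.622). Selplg was 1.80, 1.64, 1.91 and 2.36 against 1.35, 1.08, 0.765 and 0.893 (−0.54 ± 0.11, adjusted p = 0.678). All 4 labelled libraries of both genes were below all 4 controls. Tmem119 was 1.53, 2.29, 2.37 and 1.94 against 1.16, 1.12, 0.833 and 1.31 (−0.52 ± 0.11, adjusted p = 0.734). Cx3cr1 was 1.40, 2.27, 1.63 and 2.26 against 1.17, 0.928, 0.543 and 1.25 (−0.55 ± 0.14, adjusted p = 1.00). The marker and the fractalkine receptor did not overlap between the groups either.

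Aif1 was 2.22, 1.98, 1.89 and 2.23 RPKM in controls and 1.76, 0.936, 0.651 and 1.54 in libraries labelled IL34-KO (−0.50 ± 0.14). Sall1 was 2.80, 3.43, 2.62 and 2.88 against 2.45, 1.96, 1.76 and 2.35 (−0.33 ± 0.10), and Fcrls was 1.60, 1.79, 1.66 and 1.44 against 1.36, 1.04, 0.647 and 1.37 (−0.33 ± 0.11). The groups were apart for these 3 as well. Gpr34, at 1.73, 2.13, 1.48 and 1.78 against 1.53, 0.882, 0.754 and 1.21 (−0.42 ± 0.12), was the 1 member whose groups overlapped, through a single library labelled IL34-KO at 1.53 above a control at 1.48. The third library labelled IL34-KO was the lowest of the 8 libraries for all 8 genes. Without it the differences ran from −0.49 to −0.22, with all 8 still below 0. The first labelled library lay nearest the controls in the sums of these genes. Without that one the median of the 8 was −0.57 and their lowest adjusted p 0.0685, and without any other single library this p was 0.737 or more.

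**Figure D4:**
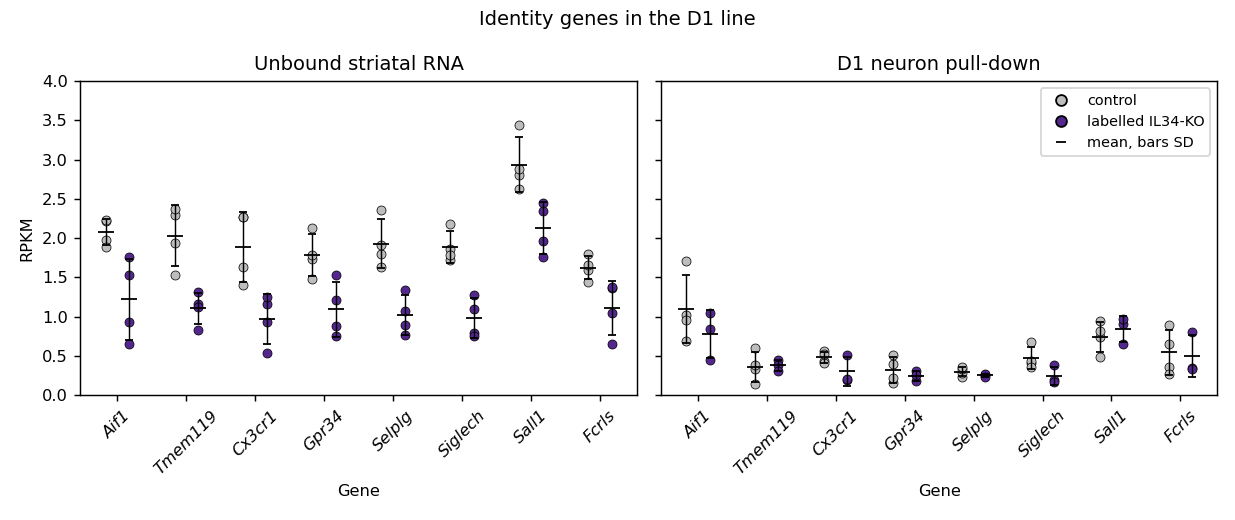
RPKM of the 8 genes in single libraries of the D1 line, in unbound striatal RNA (left, 4 control and 4 labelled IL34-KO) and in the D1 neuron pull-down (right, 4 and 3), with means and SD bars. On the left the groups are apart for every gene but Gpr34, and on the right all values lie at or below 1.71 RPKM.

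Read against the background, 0% of 9853 genes were called in this comparison (limma), 87 had an unadjusted p under 0.05 and limma-voom called 0. The groups were apart with the labelled libraries below in 0.69% of all genes tested, and in 7 of the 8 members. An unadjusted p under 0.05 with a lower value was found for 0.731% of genes, 72 in all. The 8 members were all among those 72, at ranks 2 to 38 by p, together with 16 of the 21 tested genes of the other homeostatic list. All 21 of that list had estimates below 0, with a median of −0.48 against −0.51 for the 8 and −0.03 over all genes. P2ry12, the purinergic receptor of resting microglia, had the smallest value there (−0.81 ± 0.16, adjusted p = 0.678), and Mertk, a phagocytic receptor kinase, the largest (−0.01 ± 0.18). The genes of each list share their microglia and libraries, so these counts are not independent of one another. The members were chosen with such results known, and no test over the list was made.

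The 8 summed to 14.8, 17.4, 15.3 and 17.1 RPKM in controls and to between 6.70 and 12.1 in libraries labelled IL34-KO, with no overlap. The 35 other homeostatic genes summed to 101, 112, 95.8 and 101 against 93.4, 66.0, 52.5 and 70.5. As a share of that sum the 8 were 14.7% to 16.9% in controls and 12.8% to 15.6% in the labelled libraries, which overlap. In the D1 pull-downs of controls the 35 summed to 44.9 to 58.6 RPKM and the 8 to 3.61 to 5.78. The sum of the 35 may thus hold RNA of other cells, whose part in the share was not tested. Of the microglial transcription factors 5 of 12 were tested between the labels in unbound RNA, with a median of −0.07 and none called. Of the disease-associated genes 10 of 16 were tested, 4 above and 6 below 0, with a median of −0.05. No monocyte or neutrophil gene reached the filter, and the single border macrophage gene that did was at −0.04.

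Markers of other cells were compared for the same libraries. Summed pan-neuronal markers were 733 to 1180 RPKM in controls and 811 to 1378 in libraries labelled IL34-KO. Summed astrocyte markers were 346 to 377 and 324 to 419, and summed oligodendrocyte markers 454 to 798 and 523 to 749. These ranges overlapped, and their list medians lay between −0.08 and −0.00, with none of their genes called. Depth overlapped as well, at 11.3 to 22.9 M reads in genes in controls and 16.3 to 29.1 M in the labelled libraries. Rescaled to reads in genes, the 8 stood at 0.511 to 0.730 of the control mean.

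In the D1 neuron pull-down the 8 were low, and none reached the mean of 1 RPKM needed for testing against controls. Aif1 was 1.02, 0.688, 0.964 and 1.71 RPKM in controls and 1.04, 0.848 and 0.445 in libraries labelled IL34-KO, and Sall1 was 0.486, 0.940, 0.738 and 0.817 against 0.904, 0.657 and 0.976. Siglech was 0.413, 0.441, 0.355 and 0.673 against 0.190, 0.165 and 0.381, from 15 to 61 reads. The other 5 members lay between 0.138 RPKM (Tmem119, a control) and 0.895 (Fcrls, a control). The groups overlapped for all 8. Without the filter, 0 of the 8 were called, as were 0% of 18361 genes, of which 479 had an unadjusted p under 0.05. With the filter limma called 0.00957% of 10452 genes. The estimates ran from −0.24 ± 0.09 (Siglech, unadjusted p = 0.0284) to 0.08 ± 0.11 (Sall1).

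Against the unbound RNA of the same line, the 8 stood lower in the D1 pull-down. Without the filter on low values all 8 were called lower in controls, where 9.55% of 19229 genes were, and 7 of the 8 in libraries labelled IL34-KO, where 7.16% were. With the filter 3 of the 8 were tested. They reached a mean of 1 RPKM over the 15 libraries only through the unbound RNA, where Sall1, Aif1 and Tmem119 averaged 2.53, 1.65 and 1.57 RPKM against 0.789, 0.959 and 0.372 in the D1 pull-down, so that the filter largely set their direction and their count supports nothing. Their differences in controls were −1.18 ± 0.10 for Sall1, −1.15 ± 0.11 for Tmem119 and −0.58 ± 0.16 for Aif1, all 3 called, as were 6.84% of 10266 genes. With libraries labelled IL34-KO, Sall1 (−0.76 ± 0.11) and Tmem119 (−0.60 ± 0.12) were called, against 5.92% of genes, and Aif1 was not (−0.31 ± 0.18, adjusted p = 0.108). As ratios of mean RPKM, the D1 pull-down held 0.156 to 0.526 of the unbound level in controls and 0.226 to 0.638 in the labelled libraries.

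These values carry an offset of scaling. The library size that the authors' RPKM implies, relative to reads in genes, was 1.68 to 1.95 in the 8 unbound libraries and 1.00 to 1.01 in the 7 D1 pull-downs, and all genes together shifted by a median of 0.81 towards the pull-down in controls. Rescaled to reads in genes, the ratios of the 8 were 0.0871 to 0.294 in controls and 0.127 to 0.359 in the labelled libraries. All 8 were then called lower in both groups, but they reached the filter only through the unbound RNA. That count supports nothing either. The change between labels in unbound RNA less that in the D1 pull-down was called for 0 of 3 and for 0% of genes, with 100 at an unadjusted p under 0.05. It was −0.55 ± 0.17 for Tmem119, −0.42 ± 0.15 for Sall1 and −0.27 ± 0.24 for Aif1. This contrast shares its unbound libraries with the comparisons above.

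The genes whose levels most resembled the mean of the 8 were listed as a description, over libraries that share lines and depth. Over the 20 libraries of the receptor lines, where the contrast of pull-down and unbound sets the pattern, these were Laptm5 and Cd53, membrane proteins of blood-lineage cells, the protease inhibitor Cst3, Hmha1 and the lysosomal protease Ctsd, all at a Pearson r of 1.00. Over the 10 pull-down libraries alone they were Nipsnap3b (0.97), Cdk2ap2 (0.96), Cd84 (0.94), Isyna1 (0.94) and Tnfrsf1b (0.93). Within these 10 libraries the members followed their own mean to unequal degrees, from an r of 0.91 for Siglech and 0.86 for Aif1 down to 0.62 for Sall1 and 0.35 for Fcrls. The most similar gene to each of 7 members was Psmc2 for Tmem119 (0.95), Itm2b for Siglech (0.96), Naa30 for Selplg (0.92), Cd53 for Cx3cr1 (0.95), Exosc10 for Sall1 (0.94), Phf23 for Gpr34 (0.96) and Pycard for Aif1 (0.94). Each was the highest of many candidates over only 10 libraries.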

How the data were processed

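Striatal pull-down and unbound RNA was amplified with a NuGEN Ovation V2 kit and read for 75 cycles, per the labels' protocols. The authors deposited RPKM per gene. Tools listed by the submitters' processing notes are TopHat2 2.1.0, HTSeq 0.6.0, bcl2fastq and DESeq2, with the build mm9. The role of each tool, the annotation and the strand setting are not given in the sources used here. From the receptor lines' values, 147 lines that were empty were left out. Columns show a group but no replicate number, so a library number is only its place in its group. A sample of striatal nuclei was not analysed here.

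Whole reads were recovered from the RPKM steps for 100% of 18090 and 18102 genes (tolerance 0.0001 reads) and show counting error only, since amplified reads are not separate molecules. Fits used limma 3.58.1 in R 4.3.3 (eBayes with trend) on log2(RPKM + 1), for genes averaging 1 RPKM or more in the libraries fitted, and tests were two-sided with Benjamini-Hochberg adjusted p under 0.05 over all genes. Folds from the fits are on the RPKM + 1 scale and understate changes of low genes. The 10 pull-down and the 10 unbound libraries of the receptor lines were fitted apart, the fractions together. Fits were run on simulated reads with known changes, drawn with the same dispersion for every gene and no effect shared within a library. Real libraries differ from this, so that run checks the code and not the calls reported here. The 8 members, the lists and the rule for named genes (all members, Il34, Fos, the extremes of the other homeostatic list, and genes of highest correlation, of which some are not reported here) were chosen with earlier results of these data known. The comparison of the lines was added after the values had been seen. Python with pandas and matplotlib made the summaries.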

Additional observations from a re-analysis of the deposited data

How the results depend on the processing

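Alternatives were a pseudocount of 0.1, no filter on low values, quantile scaling, limma-voom on recovered reads, the compared groups alone, each library left out in turn and, added after seeing the data, RPKM rescaled to reads in genes. No paired analysis was possible because the columns carry no replicate numbers. All 8 members stayed called for enrichment, and 0 were called for CNO or for IL34-KO labels, under every alternative run. Of 1247 recomputed values of single members, 0 that were called changed sign, and 78 of 931 uncalled estimates did. The number of members called between the lines fell from 1 (Fcrls) to 0 with no low filter and ranged from 0 to 1 with single libraries left out. Against unbound RNA, the members called in D1 pull-downs were 3 in controls, then 8 with no low filter or rescaled to reads in genes, and 2 to 4 with single libraries left out. In libraries labelled IL34-KO they were 2, then 7 with no low filter, 8 rescaled, and 1 to 4 with single libraries left out. The cause was not tested, beyond the filter's construction, which sets how many members are tested. In unbound RNA labelled IL34-KO the median difference of the 8 lay between −0.81 (pseudocount 0.1) and −0.40 (without the third labelled library), and the lowest adjusted p was 0.0685 (without the first). Of all genes, CNO in the Chrm3 unbound RNA called 78, 185 with limma-voom, 30 with the compared groups alone and 1 with no low filter; in the Chrm3 pull-down it called 5, 10 with limma-voom, 8 with the compared groups alone and 1 with no low filter. Standard errors of the members for CNO were 0.16 to 0.24 in the Chrm3 pull-down and 0.17 to 0.22 in its unbound RNA. They were 0.19 to 0.29 in the Chrm4 pull-down, which had 2 libraries per group. The pseudocount compresses the spread of low values, so these errors do not compare the precision of the 2 fractions. For the 7 members tested in both, the coefficient of variation over 10 libraries was 13.2% to 19.9% in the pull-down and 19.9% to 37.3% in unbound RNA.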
